A study of Mus musculus with 12 samples.

Results

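The nuclear factor I (NFI) genes of the mouse are Nfia, Nfib, Nfic and Nfix. They were followed as the annotated genes of Rev-Erbα binding sites in brown adipose tissue, taking every row of the deposited peak lists that carried 1 of these 4 names. That gave 28 of 13410 rows: 24 of the 11227 windows listed at 4 °C and 4 of the 2183 windows listed at 29 °C. Because 3 windows of the lists overlapped, they make up 25 distinct sites. Rev-Erbα, the product of Nr1d1, is a heme-binding nuclear receptor that represses transcription in the circadian clock. NFI proteins bind DNA as dimers, activate or repress transcription depending on the site, and share a conserved DNA-binding domain. In mouse brown adipocytes NFIA is known to open chromatin at brown fat genes and to act there beside PPARγ. NFIB is best known for lung and brain development, NFIC for tooth root formation and NFIX for the switch to the fetal muscle programme.

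Binding was measured by chromatin immunoprecipitation and sequencing with anti-HA magnetic beads. HA-RevErbα mice on the C57BL/6 strain, in which Rev-Erbα carries an HA tag, gave 4 libraries after 1 week at 4 °C (chronic cold) and 4 after 1 week at 29 °C (thermoneutrality). C57BL/6 wild-type (WT) mice without the tag went through the same pull-down as background and gave 2 libraries at each temperature. The 12 libraries held 27.0 to 37.3 M (mega) reads aligned exactly 1 time each. The labels give no sex, age, hour of collection or number of animals per library, nor how the tagged protein is expressed. The peak values exist only for 4 pools, each made from the libraries of 1 genotype at 1 temperature. With 1 pool per group there is no replicate spread between temperatures, so no p-value is given, and the intervals below cover counting error only. The unit is FPKM, the reads in a 200 bp window per kilobase and per M reads of the pool, a density of pulled-down DNA and not a level of gene expression. The labels name the tissue and no cell type, so binding in fewer cells cannot be told apart from less binding per cell. Coordinates are on mouse build mm9 as the files give them. The gene of a site is the one with the nearest annotated transcription start site (TSS), which does not show that the site acts on that gene.

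All 4 family members had at least 1 site in the 4 °C list, and Nfic was the member without a site at 29 °C. Nfia was the annotated gene of 12 windows at 4 °C and 1 at 29 °C. Nfib had 8 and 2, Nfix had 3 and 1, and Nfic had 1 and 0. Of the 21031 protein-coding genes with an NM transcript in the RefSeq table, 21.8% were the gene of a 4 °C window and 6.3% of a 29 °C window. The site counts of Nfia and Nfib lay far into the upper tail of the cold list. Among the 4591 genes with a 4 °C window that the deposited annotation types as protein-coding, the median was 1 window and the 90th percentile 4. Only 18 of these genes (0.392%), Nfia included, had 12 or more, and 95 (2.07%) had 8 or more. Nfix, with 3, was among 1071 genes (23.3%) with at least that many, and Nfic was 1 of 2530 genes with a single window. The highest count, 21, belonged to Zfp608.

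**Figure D1:**
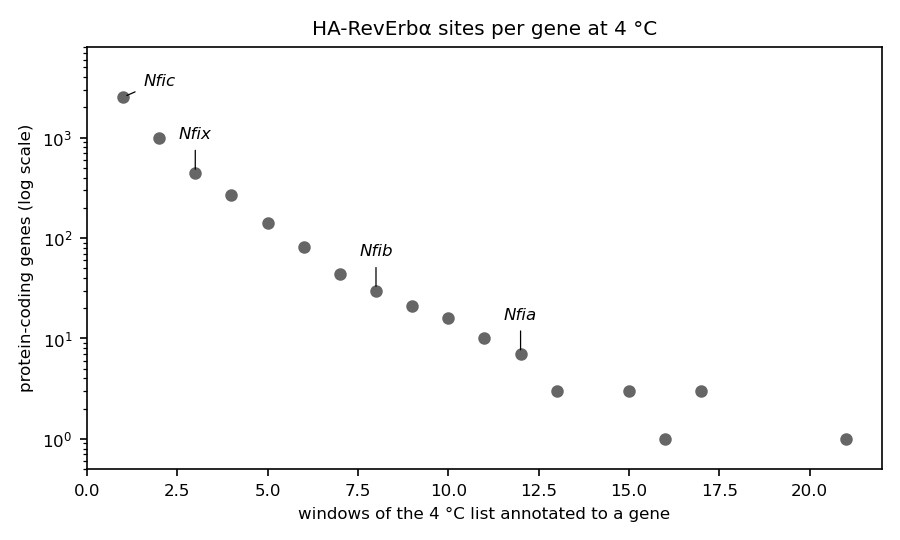
Number of protein-coding genes (log scale) against the number of windows of the 4 °C list annotated to a gene; each point is a count of genes. Nfia with 12 windows and Nfib with 8 sit in the sparse tail. Nfic with 1 lies at the median, and Nfix with 3 lies above it but below the 90th percentile of 4.

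The sites lay inside the genes or far from them, and none was annotated as a promoter. Of the 24 windows of the 4 °C list, 20 (83.3%) were intronic and 4 (16.7%) intergenic, against 47.8% intronic and 44.3% intergenic over all windows of that list. Promoters held 0 of the 24 and 3.82% of all windows. The nearest site to a start lay at 2.2 kb, in intron 1 of Nfic. The median distance to the TSS was 134 kb, against 27.5 kb over all windows. Beyond 100 kb lay 14 of the 24 (58.3%), against 16.5% of all. These 14 comprised 8 of Nfia and 6 of Nfib. A set of 93 other protein-coding genes with 8 or more windows, chosen after the values were seen, had 29.4% of its 935 windows beyond 100 kb, 52.3% in introns and 1.07% at promoters. Known repeats covered 2 of the 24 windows, a SINE and a LINE element in Nfib introns, or 8.33% against 13.5% of all.

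Within the genes the sites were unevenly placed. Nfia has 2 annotated start regions 195.7 kb apart, and its positions are given here from the upstream one, that of transcript NM_001122952. The distances to the TSS above are the authors', to the nearer start. The 13 distinct Nfia sites spanned 804 kb of chromosome 4. The 4 intergenic ones lay upstream, at -388.5, -163.3, -142.5 and -30.5 kb. A single site fell in intron 1, at 107.6 kb. Intron 2 held 5 sites, at 277.7, 282.6, 328.9, 329.5 and 342.1 kb. Intron 3 held 2 sites of the 4 °C list and the 1 of the 29 °C list. The smallest gap was 530 bp, between the starts of the windows at 328.9 and 329.5 kb. The 8 Nfib sites spanned 198 kb of chromosome 4, all inside the gene, with 2 in intron 2, 2 in intron 6 and 1 each in introns 1, 3, 4 and 8. The 3 Nfix sites were spaced along intron 2, within 15.7 kb of chromosome 8.

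**Figure D2:**
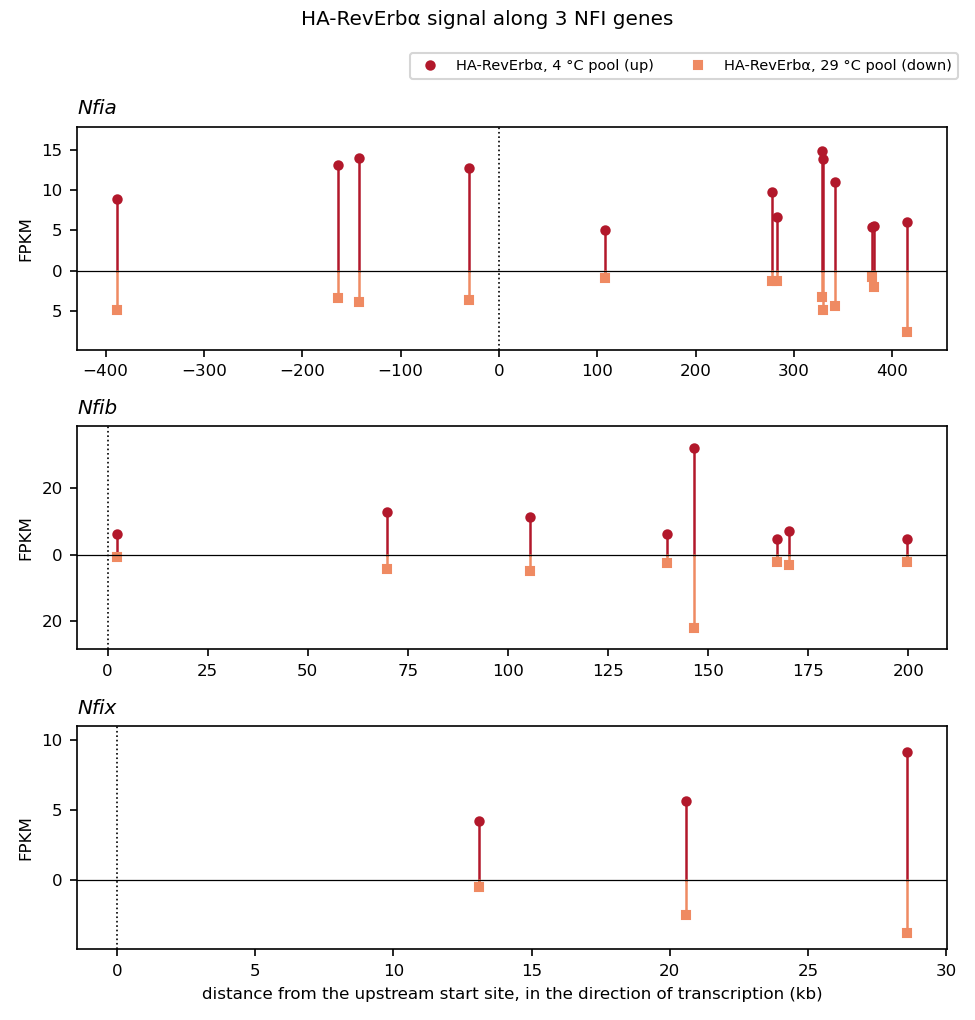
HA-RevErbα FPKM in the 4 °C pool (up) and the 29 °C pool (down) by distance from the upstream start site, in kb along the direction of transcription, for Nfia, Nfib and Nfix. Each stem is 1 distinct site in 1 pool; Nfia sites run from -388.5 to 415.4 kb and the tallest stem is the Nfib site at 146.4 kb.

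The strongest site of the family was an intronic Nfib site present in both lists. It spans 82005175 to 82005375 of chromosome 4, in intron 4 of 8 of transcript NM_008687, 146.4 kb from the TSS. It had 32.08 FPKM in the HA-RevErbα 4 °C pool and 21.89 in the HA-RevErbα 29 °C pool, against 2.04 in the WT 4 °C pool and 1.41 in the WT 29 °C pool. Both tagged pools were far above both WT pools. The tagged signal was 15.7 times WT at 4 °C (95% exact interval 8.75 to 31.9) and 15.5 times WT at 29 °C (7.51 to 39.4). The authors' peak score, which equals reads per 10 M reads of the pool, was 64.1 at 4 °C, rank 98 of 11227, and 43.8 at 29 °C, rank 77 of 2183. The next score in the family was 29.8. Its 4 °C to 29 °C ratio was 1.47 (1.25 to 1.72), the smallest of the 24 windows of the cold list.

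A second Nfib site in both lists lay at 105.6 kb, in intron 2 (chromosome 4, 82045941 to 82046141). It had 11.22 FPKM in the HA-RevErbα 4 °C pool and 4.94 in the HA-RevErbα 29 °C pool, against 2.22 in WT at 4 °C and 1.01 in WT at 29 °C. The ratio was 2.27 (1.67 to 3.13). In the window of the 29 °C list, which starts at 82045898, the tagged pools had 10.28 FPKM in the cold and 5.52 at thermoneutrality (ratio 1.86, 1.38 to 2.54). The remaining 6 Nfib sites were in the 4 °C list only. The intron 2 site at 69.8 kb had 12.87 and 4.37 FPKM in the HA-RevErbα 4 °C and 29 °C pools, against 2.22 and 2.40 in the WT 4 °C and 29 °C pools. Its 29 °C interval over WT, 0.962 to 3.75, included 1. The site nearest the start, at 2.3 kb in intron 1 (82149277 to 82149477), had 6.13 FPKM in the HA-RevErbα 4 °C pool and 0.83 in the HA-RevErbα 29 °C pool, against 0.93 and 1.01 in the WT 4 °C and 29 °C pools. The cold tagged pool alone stood out from values near 1 FPKM, with a ratio of 7.44 (3.84 to 16.1) that rests on 78 reads at 4 °C and 10 at 29 °C. The other 4 sites, at 139.7, 167.1, 170.1 and 199.8 kb, had ratios between 2.29 and 2.46.

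Nfia carried many sites, with a median score of 20.8 in the cold list. Over all windows of that list the median score was 14.1 and the median HA-RevErbα 4 °C value 7.07 FPKM. Over the 12 Nfia windows of the cold list the HA-RevErbα 4 °C pool ran from 5.03 to 14.91 FPKM, with a median of 10.4. The HA-RevErbα 29 °C pool ran from 0.75 to 4.86 with a median of 3.3. The WT 4 °C pool ran from 0.75 to 3.14 and the WT 29 °C pool from 0.61 to 2.80. Every 4 °C value of the tagged pool was above every 29 °C value, while the 29 °C values overlapped those of WT. No Nfia window of the cold list overlapped a 29 °C peak, and only 14.9% of all windows of that list did.

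The highest-scoring Nfia site, at 328.9 kb in intron 2 (chromosome 4, 97577455 to 97577655), had 14.91 FPKM in the HA-RevErbα 4 °C pool and 3.22 in the HA-RevErbα 29 °C pool, against 2.04 in WT at 4 °C and 2.40 in WT at 29 °C. Its ratio was 4.65 (3.28 to 6.74). Its neighbour at 329.5 kb had 13.89 and 4.86 FPKM in the tagged 4 °C and 29 °C pools, against 3.14 and 1.60 in the WT 4 °C and 29 °C pools, and a ratio of 2.86 (2.12 to 3.91). Upstream of the gene, the site at -142.5 kb (97106003 to 97106203) had 14.05 FPKM in the HA-RevErbα 4 °C pool and 3.88 in the HA-RevErbα 29 °C pool. Those at -163.3 and -30.5 kb were close to it, with 13.18 and 12.71 FPKM in the HA-RevErbα 4 °C pool. The 3 upstream ratios lay between 3.51 and 3.91. The farthest site, at -388.5 kb, had 8.95 FPKM in the tagged 4 °C pool and 4.86 in the tagged 29 °C pool, the smallest Nfia ratio of the cold list at 1.84 (1.33 to 2.57). The largest Nfia ratio, 7.88 (4.60 to 14.5), was at 277.7 kb in intron 2, with 9.73 FPKM in the HA-RevErbα 4 °C pool and 1.24 in the HA-RevErbα 29 °C pool. At 29 °C this window had 2.40 FPKM in WT, more than the tagged pool. The next site, at 282.6 kb, had 6.68 FPKM in the HA-RevErbα 4 °C pool and 1.33 in the HA-RevErbα 29 °C pool, against 0.93 in WT at 4 °C and 0.61 in WT at 29 °C, a ratio of 5.07 (2.95 to 9.26). The site at 342.1 kb had 11.07 FPKM in the tagged 4 °C pool and 4.37 in the tagged 29 °C pool (ratio 2.54, 1.84 to 3.55). The weakest in the cold, at 107.6 kb in intron 1, had 5.03 FPKM in the tagged 4 °C pool and 0.91 in the tagged 29 °C pool (ratio 5.55, 2.90 to 11.7). In intron 3 the sites at 378.9 and 381.1 kb were nearly as weak in the cold, with 5.42 and 5.58 FPKM in the HA-RevErbα 4 °C pool, and had ratios of 7.31 (3.64 to 16.7) and 2.71 (1.70 to 4.46).

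One Nfia site was listed at 29 °C only. It lay at 415.4 kb in intron 3 (chromosome 4, 97663967 to 97664167) and had 6.05 FPKM in the HA-RevErbα 4 °C pool and 7.58 in the HA-RevErbα 29 °C pool, against 2.04 in WT at 4 °C and 1.41 in WT at 29 °C. The ratio of 0.798 had an interval that included 1 (0.582 to 1.09). At 4 °C the tagged pool exceeded WT by 4.01 FPKM and was 2.97 times WT (1.58 to 6.21). Across the cold list the excess over WT was never under 3 FPKM and the fold over WT never under 3.99, so this window fell short of the fold only. It was also the single site of the family with a 29 °C value above its 4 °C value.

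Nfix and Nfic had fewer sites than Nfia and Nfib. In the cold list the median score was 11.3 for Nfix, and the Nfic site scored 11.9. These were well below the Nfia median of 20.8 but near that of Nfib, 13.2, or 12.5 without its highest-scoring window. The strongest Nfix site, 28.6 kb into the gene (chromosome 8, 87269548 to 87269748), was in both lists. It had 9.18 FPKM in the HA-RevErbα 4 °C pool and 3.79 in the HA-RevErbα 29 °C pool, against 1.48 in WT at 4 °C and 0.61 in WT at 29 °C, a ratio of 2.43 (1.71 to 3.49). Its score of 7.57 at 29 °C ranked 1952 of 2183, near the bottom of that list. The Nfix site at 20.6 kb had 5.66 FPKM in the tagged 4 °C pool and 2.48 in the tagged 29 °C pool (ratio 2.29, 1.48 to 3.63). The one at 13.1 kb had 4.24 FPKM in the HA-RevErbα 4 °C pool and 0.5 in the HA-RevErbα 29 °C pool, against 0.75 and 0.81 in the WT 4 °C and 29 °C pools. This gave the largest ratio of the family, 8.58 (3.70 to 24.4), from 54 reads at 4 °C and 6 at 29 °C. The Nfic site (chromosome 10, 80887616 to 80887816) had 5.97 FPKM in the HA-RevErbα 4 °C pool and 3.46 in the HA-RevErbα 29 °C pool, against 1.12 in WT at 4 °C and 1.01 in WT at 29 °C. Its ratio was 1.73 (1.17 to 2.58). At 29 °C the tagged pool was 3.43 times WT there (1.37 to 11.2), short of both limits of the lists, with an excess of 2.45 FPKM.

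**Figure D3:**
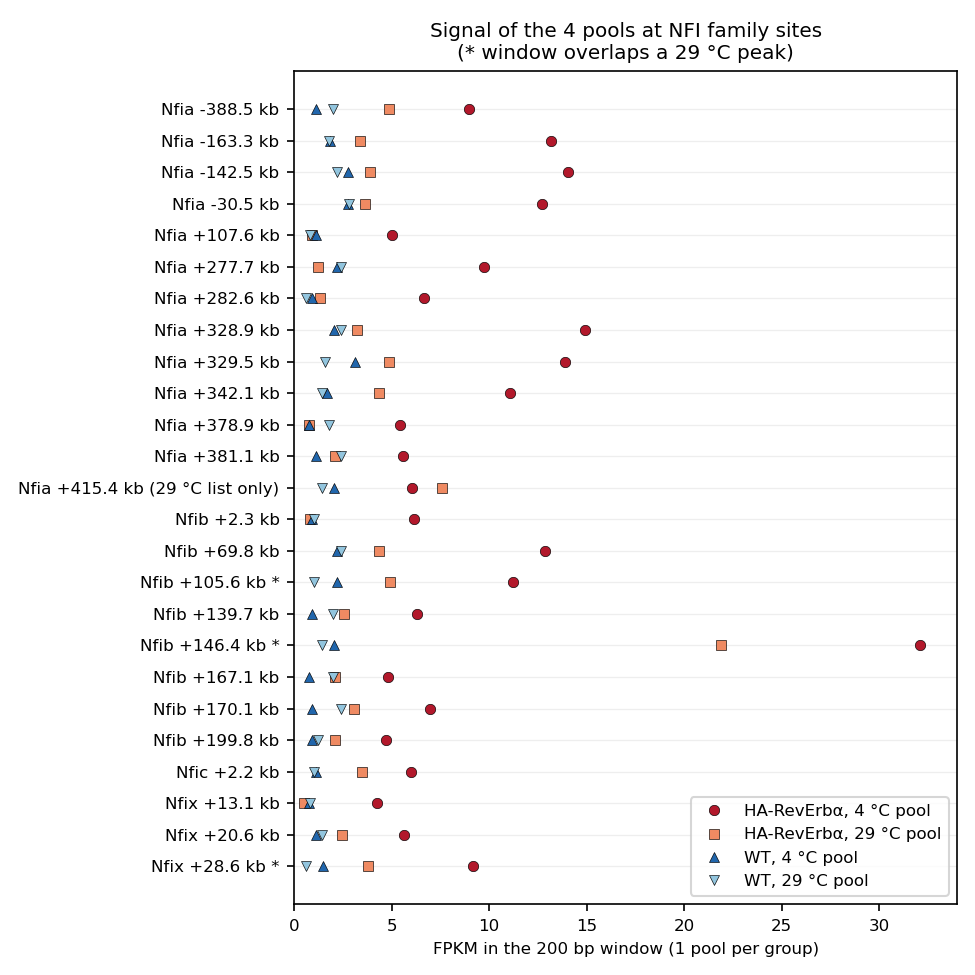
FPKM at 4 °C and 29 °C in the tagged pools and then in the WT pools, at the 25 distinct NFI family sites, named by gene and distance from the upstream start site; each symbol is 1 pool. The cold tagged pool is the highest at 24 sites, and only the Nfib site at 146.4 kb exceeds 20 FPKM at 29 °C.

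The comparison of cold with thermoneutrality asked how strongly the tagged signal at these sites differed between the pools. All 24 windows of the cold list had a ratio above 1, with a median of 2.78 and a range from 1.47 to 8.58. The median over all 11227 windows was 3.05. A ratio of 2 or more was reached by 21 of the 24 (87.5%), against 83.4% of all windows. The counting interval lay above 1 at all 24, against 95.4% of all, when pools were scaled by their reads. These shares are near those of the whole list, which was selected on its 4 °C signal. Summed over the 24 windows, tagged reads per pool read were 2.68 times as dense at 4 °C as at 29 °C (2.50 to 2.88), and 2.68 times over all windows (2.67 to 2.69). The overlap with the 29 °C list was 3 of 24 windows (12.5%), against 14.9% of all.

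Among the 4 windows of the 29 °C list, 3 had a ratio above 1 and 1, at Nfix, a ratio of at least 2. Over all windows of that list, 31.5% reached a ratio of 2. The median was 1.66 for the 4 family windows and 1.64 for all 2183. With 4 windows this gives no more than their own values.

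WT reads in the family's cold windows were alike at the temperatures. The 24 windows together held 199 WT reads at 4 °C and 197 at 29 °C, a density ratio of 0.934 (0.763 to 1.14), against 1.02 over all windows of the list. These windows were selected on low WT values at 4 °C and not at 29 °C. The count of ratios past 2 depended on the scaling. When the pools were scaled to equal WT reads over the windows that overlap between the lists, every ratio was divided by 1.44. Then 11 of the 24 family windows, and 55.4% of all windows, reached 2, while all 24 ratios stayed above 1, the lowest at 1.02. The counting interval, with that factor taken as known, then lay above 1 at 19 of the 24 (79.2%), against 79.8% of all windows. It included 1 at the strongest site, Nfib at 146.4 kb (0.870 to 1.19), at the Nfib sites at 167.1 and 199.8 kb, at Nfia -388.5 kb and at Nfic. The same scaling put the Nfia site listed at 29 °C only at 0.554, with an interval below 1 (0.404 to 0.758). Of all 2183 windows of the 29 °C list, which was selected on its 29 °C signal, 415 had an interval below 1 under that scaling.

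The members differed in ratio within the cold list. The median was 3.77 over the 12 Nfia windows, 2.31 over the 8 of Nfib and 2.43 over the 3 of Nfix. Summed reads gave 3.52 for Nfia (3.16 to 3.93) and 2.04 for Nfib (1.83 to 2.27). These counting intervals did not overlap, but they leave out the spread between windows. Single windows ran from 1.84 to 7.88 for Nfia and from 1.47 to 7.44 for Nfib. Whether the genes differ beyond that spread was not tested. The summed Nfib ratio rested in part on the strongest Nfib site, which supplied 266 of the 507 tagged Nfib reads at 29 °C. Without that window, left out after its value was seen, the Nfib ratio was 2.67 (2.30 to 3.11), still below the Nfia interval. Leaving the same window out moved the family's summed ratio to 3.09 (2.85 to 3.35). No spread between animals stands behind these differences.

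At 29 °C the tagged signal was not clearly above background at many of these sites. Its median over the 24 windows was 3.13 FPKM, against 1.70 in the WT 29 °C pool, while over all windows of the list these medians were 2.39 and 1.21. The tagged value was 1.73 times WT in the median, against 2.18 times over all windows. Its counting interval over WT lay above 1 at 7 of the 24 (29.2%), against 41.5% of all. The windows held only 3 to 14 WT reads each at 29 °C, so an interval that includes 1 does not show equality with WT. The tagged pool was at or below WT at 5 windows (20.8%), against 13.8% of all. These 5 were the Nfia sites at 277.7, 378.9 and 381.1 kb, the Nfib site at 2.3 kb and the Nfix site at 13.1 kb. Both limits seen in the lists were reached at 29 °C by 3 of the 24 windows, against 1541 of all 11227. They were the same 3 that overlapped a 29 °C peak, and the 29 °C list is itself bounded by these limits. The Nfia site at 329.5 kb passed the difference limit alone, with 3.26 FPKM over WT and 3.04 times WT. Of all 11227 windows, 536 passed that limit alone.

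**Figure D4:**
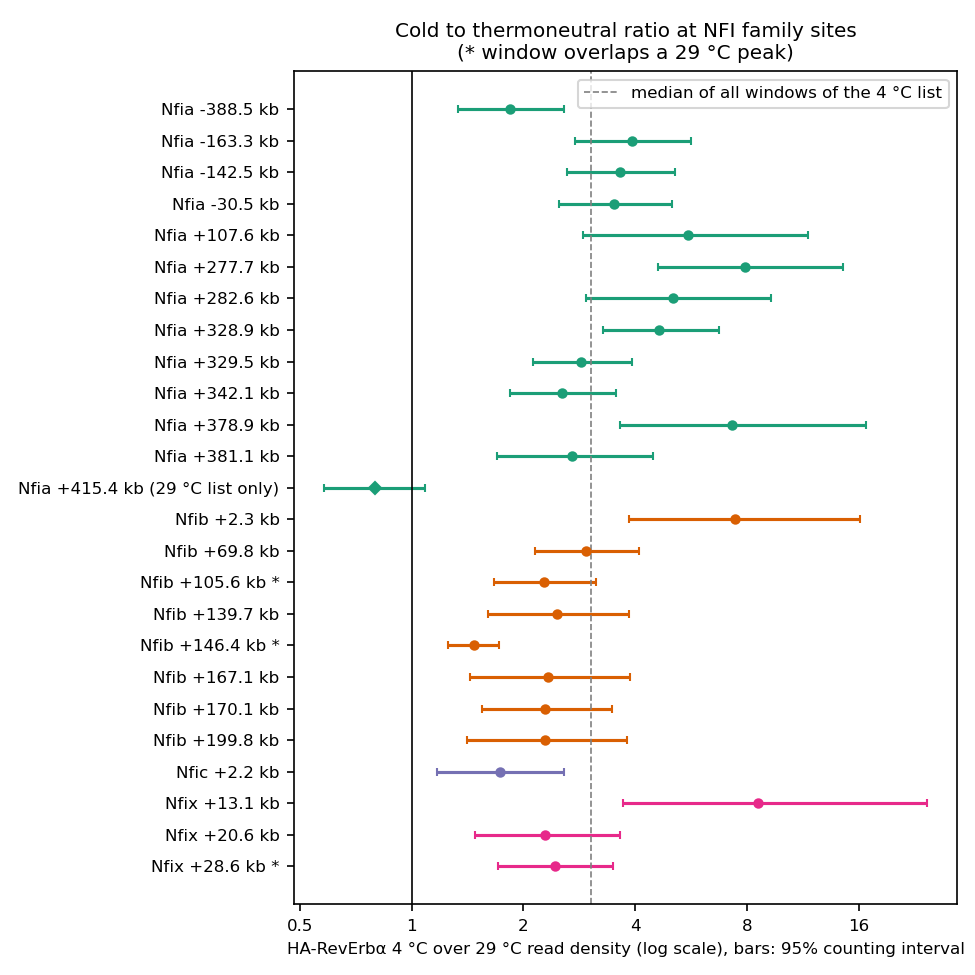
Ratio of HA-RevErbα read density at 4 °C over 29 °C (log scale) at the 25 distinct NFI family sites, with 95% exact counting intervals; circles are windows of the 4 °C list, the diamond is the Nfia window listed at 29 °C only, and the dashed line is the median of all cold windows, 3.05. With pools scaled by their reads, all 24 circles have intervals above 1, the Nfib site at 146.4 kb has the lowest of them at 1.47, and the diamond at 0.798 has an interval that includes 1.

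Other lists of regulator genes, not all of them transcription factors, give a scale for the family. Over all protein-coding genes, 21.8% were the gene of a 4 °C window and 6.3% of a 29 °C window. Of 24 factors and cofactors of the brown adipocyte programme, 13 had a 4 °C site and 4 a 29 °C site, with at most 7 cold windows per gene, at Mecom. Pparg, the adipogenic nuclear receptor that works with NFIA, led that list by score at an intronic site with 17.26 FPKM in the HA-RevErbα 4 °C pool and 3.30 in the HA-RevErbα 29 °C pool (ratio 5.24, 3.73 to 7.54). Next came Ppargc1b and Ebf1, with ratios of 2.34 (1.81 to 3.05) and 3.01 (2.26 to 4.04). The list's median ratio was 3.16 over 43 windows, of which 25.6% lay beyond 100 kb. Of 17 Kruppel-like factor genes, 9 had a 4 °C site and 5 a 29 °C site. Klf9, Klf4 and Klf15 had the highest scores, from 40.3 to 30.7, and Klf4 had 17 cold windows, more than Nfia. Their list had a median ratio of 3.03 over 46 windows, with 10.9% in introns and 37.0% beyond 100 kb. Of 20 core clock genes, 17 had a 4 °C site and 5 a 29 °C site, with a median ratio of 2.98 over 56 windows and 10.7% beyond 100 kb. Their top sites, at Npas2, Cry1 and Nr1d1, scored from 168.1 to 123.1, well above the 64.1 of Nfib. The NFI windows were thus more often intronic, at 83.3%, than those of any of these lists, the clock list being next at 57.1%. These are descriptions of the lists, and none of the differences was tested.

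The genes nearest to Nfia in their pair of site counts were found by Euclidean distance on log2(count + 1) over the 2 lists. Prkag2, a regulatory subunit gene of AMP-activated protein kinase, came first with 11 cold windows and 1 at 29 °C. Tle3, a corepressor gene, Cpeb2, Pde7b and Ly86 followed, each with 10 and 1. Their median ratios ran from 2.90 at Prkag2 to 5.28 at Cpeb2, on either side of the 3.77 of Nfia.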

How the data were processed

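Samples were grouped by their titles. The submitters' processing notes list Bowtie2 2.1.0, HOMER 4.10 and mm9 but do not say what each was used for, and no source used here gives the peak-calling settings. For each library the authors deposited an aligner log, used for its total of reads aligned exactly 1 time. The authors deposited FPKM for 4 pools in 200 bp windows, with 0.01 added, and a peak score, which equals reads per 10 M reads of the pool. Less 0.01, 100% of FPKM values were whole multiples of 1 step per pool (within 0.01), which gave reads per window and pools of 63.8 M (HA-RevErbα 4 °C), 60.8 M (HA-RevErbα 29 °C), 27.1 M (WT 4 °C) and 25.1 M reads (WT 29 °C). In that order, the pools held 49.8%, 49.2%, 43.9% and 39.5% of the reads aligned exactly 1 time in their libraries. The floor of 3 reads was 0.235 FPKM in the cold tagged pool and 0.247 FPKM in the thermoneutral one.

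Ratios were computed from these reads with 95% Clopper-Pearson (exact) intervals in scipy 1.17.1, which cover counting error and neither animals nor PCR duplicates. Windows overlapping by at least 1 bp counted as shared. Step recovery and intervals were tested on simulated data. Protein-coding genes were taken from the GRCm38.p6 gene table, for names only. Window sequences were not used here, since no mm9 genome was at hand. Every site of the 4 genes is given by its position, with the 3 top-scoring members of each other list and the 5 genes nearest to Nfia in site counts. Members and lists were chosen with earlier results of these data known. Alternatives covered pool scaling, WT subtraction, a pseudocount, stricter limits, TSS distance and overlap.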

Additional observations from a re-analysis of the deposited data

How the results depend on the processing

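The median ratio of 2.78 over the 24 cold windows became 1.93 with pools scaled by WT reads over shared windows, 2.53 with 0.5 FPKM added and 5.41 over the 19 windows left when WT was subtracted, and stayed above 1 in each. Over all cold windows the median of 3.05 became 2.11, 2.69 and, over 9681 windows, 4.25. The family median was thus above that of all windows only with WT subtracted. That subtraction left out the 5 family windows with a tagged 29 °C value at or below WT. With the WT scaling, 11 of the 24 cold windows instead of 21 had a ratio of 2 or more, against 55.4% of all cold windows. Among the 4 windows of the 29 °C list the median became 1.15 and 0 reached 2. Over all windows of that list the median was 1.14 and 6.32% reached 2. Site counts depended on the limits. At least 6 FPKM over WT left 13 cold sites and 2 at 29 °C. At least 8 times WT left 1 and 1, the Nfib site at 146.4 kb in both lists. The shares of all windows past these stricter limits were not computed, so these counts describe the family sites only. Within 50 kb of the TSS lay 6 of the 24 cold sites (25%, against 66.2% of all cold windows) and 1 site at 29 °C. Within 10 kb lay 2 cold sites (8.33%, against 26.1%) and 0 at 29 °C. The 3 shared sites were the same number with 100 bp of overlap or with centres within 500 bp. Counts of intervals above 1 were added after the data were seen. With the WT scaling the counting interval lay above 1 at 19 of the 24 cold windows instead of 24, against 79.8% of all cold windows. In the 29 °C list it lay above 1 at 1 of the 4 windows instead of 3, against 36% of all windows of that list. The Nfia window listed at 29 °C only then had an interval below 1, as did 415 of all 2183 windows of that list. No paired analysis was possible because values exist for pools only, and for the same reason no replicate could be left out. Depth limits the largest ratios most, as those at Nfix 13.1 kb and Nfia 378.9 kb rest on 6 and 9 tagged reads at 29 °C.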
